A study of Rattus norvegicus with 9 samples.

Results

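The *Edn3* and *Gng11* loci of the rat were described here by their chromatin accessibility. Every region that the deposited table holds in a 200-kb window was included, around 1 region that the study's list assigns to each gene. Both regions were selected on the contrast between injured and naive rats, in which they were less accessible after injury, so their difference between the groups chose them and is given as a description. On rn6, the *Edn3* window spans chr3:172990000-173190000 and holds 32 regions, and the *Gng11* window spans chr4:31220000-31420000 and holds 9. Together these are 41 of the 186719 accessible regions. Flanks of 1 Mb on each side, with 162 regions around *Edn3* and 124 around *Gng11*, served as the local comparison.

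Accessibility was measured by ATAC-seq, in which the Tn5 transposase cuts open chromatin, in the dorsal root ganglia (DRGs) of adult female Sprague-Dawley rats. The 2 CCI rats had a chronic constriction injury of the sciatic nerve, a model of neuropathic pain made with ligatures around the nerve, and were sampled on day 14, while the 3 naive rats had no surgery. Each library came from the ipsilateral L4-L6 DRGs of 1 rat. H3K4me1, a histone mark found at enhancers, was mapped by ChIP-seq with 2 samples per group, each pooled from 3 rats, and the deposited list merges them into 1 set of positions without values. Naive rats without sham surgery differ from CCI rats in the operation as well as in the nerve injury, and these cannot be told apart. A DRG holds sensory neurons, satellite glia, Schwann cells, vascular and immune cells, so that fewer cells of a type and lower accessibility in each cell cannot be told apart in these bulk libraries.

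Endothelin 3, the product of *Edn3*, is a secreted peptide ligand of the endothelin receptors, and through the receptor EDNRB it acts on neural crest derivatives such as melanocyte precursors and enteric neuron progenitors. In sensory ganglia EDNRB is known from satellite glia, the cells that wrap neuronal cell bodies. *Gng11* encodes a gamma subunit of heterotrimeric G proteins. Gamma subunits carry a lipid anchor and pair with a beta subunit, and the dimer is released from the alpha subunit when a G protein-coupled receptor, such as an endothelin receptor, is activated. Distal elements like those described here are assigned to a gene by distance, and neither an effect on *Edn3* or *Gng11* nor the transcripts of these genes was measured in the data analysed here.

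A normalized read value is the read count of a region after division by the size factor of its library. Between 4633807 and 13248437 reads per library fell in accessible regions, and the median region held 9 to 31 reads. Log2 fold changes are CCI minus naive on log2(normalized reads + 1), with standard errors (SE) from limma fitted over all regions. Of all regions, 41.9% had a negative log2 fold change, and the median was 0.13. Distances are from the centre of the listed region, with negative values toward lower coordinates.

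The region that the study's list assigns to *Edn3* lies at chr3:173090252-173090537 and is 286 bp long. It held 8.68 and 11.9 normalized reads in CCI rats 1 and 2, compared with 27.45, 44 and 24.31 in naive rats 1 to 3. These values came from 13 and 26 reads in the CCI libraries and from 84, 44 and 37 reads in the naive libraries. The CCI values both fell short of every naive value, and the highest CCI value was under 50% of the lowest naive value. The means were 10.3 ± 2.28 (SD, n = 2) and 31.9 ± 10.6 (SD, n = 3), with a log2 fold change of -1.51 (SE 0.357). The ratio of CCI to naive reads, at the depth of each library, was 0.358, with an exact 95% interval of 0.246 to 0.511 that covers counting error only. Among all accessible regions, 0.901% had a lower log2 fold change.

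An H3K4me1 region of 404 bp covered 31.5% of this *Edn3* element, so the mark reached 1 edge of it. For this list the study tested only accessible regions with H3K4me1, so that the overlap itself was a condition for being listed. The nearest other accessible region, chr3:173089766-173089970, was centred at -0.53 kb and carried no H3K4me1. Its means were 12.2 normalized reads after CCI and 12.9 in naive rats, with a log2 fold change of -0.10 (SE 0.44). The groups overlapped there. On the other side, the next region was centred 23.91 kb away, at chr3:173114103-173114513, with a log2 fold change of -0.56 (SE 0.35) and overlapping groups.

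The values of CCI and naive rats overlapped in most regions of the *Edn3* locus, as they did in most of all accessible regions. The log2 fold changes of the 32 regions ran from -1.56 to 0.76 with a median of 0.04, and 15 were negative and 17 positive. In the flanks the median was 0.06, so that the locus differed from its surroundings by -0.02. Without CCI rat 1 the median of the locus became 0.18 and the difference from the flanks 0.13, while without CCI rat 2 the difference was -0.125. It was also positive with flanks of 0.5 Mb (0.06) and without the 25% of regions with the lowest mean (0.07). The sign of this small difference was thus not stable. Rescaling the libraries by median-of-ratios factors moved the median of the locus to -0.057, while that of all regions went from 0.13 to 0.03. Leaving out the listed region moved the median of the locus to 0.08. A limma p below 0.01 was reached by 1 of the 32 regions, the listed one, which was lower. This is 1 region against a share of 3.59% over all regions in both directions and of 1.46% for lower values, and since the same contrast chose the element nothing is read from it. In the flanks of *Edn3*, 2 of 162 regions passed, both lower.

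Both CCI values lay below all naive values in 6 of the 32 *Edn3* regions, against 11.0% of all regions, and above them in 4, against 18.2% of all regions. The remaining 22 regions overlapped between the groups. Among the 6 lower regions, 3 had a log2 fold change below -1. The lowest of all, chr3:173035924-173036073 at -54.4 kb, had 1.34 and 1.37 normalized reads in the CCI rats and 7.84, 4 and 6.57 in the naive rats. Its log2 fold change of -1.56 had an SE of 0.986, which follows the mean-variance trend of the fit at low signal. The region held only 2 and 3 reads in the CCI libraries. The third, chr3:173178641-173179041 at 88.45 kb, had 3.34 and 7.33 normalized reads after CCI and 16.01, 14 and 9.86 in naive rats, with a log2 fold change of -1.22 (SE 0.523). Neither of them overlapped H3K4me1.

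**Figure D1:**
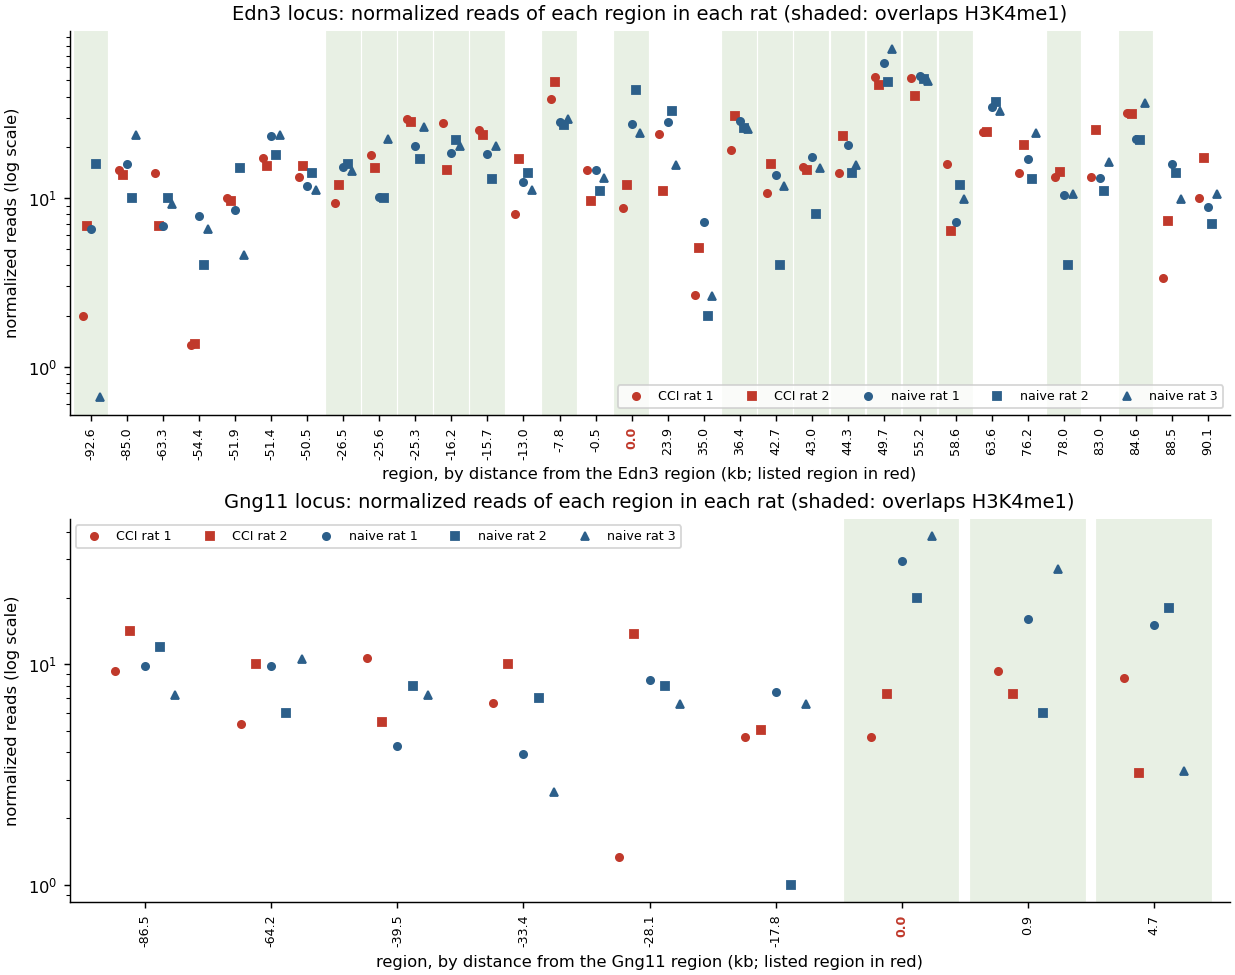
Normalized reads (log scale) of each region of the *Edn3* locus (top, 32 regions) and the *Gng11* locus (bottom, 9 regions) in each rat, ordered by the distance in kb from the listed region. Red symbols are CCI rats and blue symbols naive rats, with circles for rat 1, squares for rat 2 and triangles for rat 3, and shaded columns overlap H3K4me1. At 0.0 kb the CCI symbols lie below every naive symbol in each locus, while 22 of the other *Edn3* regions and all other *Gng11* regions have overlapping groups. Over all accessible regions, the CCI values lay below all naive values in 11.0% and above them in 18.2%, and the rest overlapped.

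The most accessible regions of the *Edn3* locus were not those with the lowest fold changes. The highest mean belonged to chr3:173139660-173140533 at 49.7 kb, with 52.07 and 46.7 normalized reads after CCI and 63.39, 49 and 76.88 without injury, and a log2 fold change of -0.33 (SE 0.27). Next came chr3:173145112-173146037 at 55.18 kb, with means of 45.8 and 51.0 and a log2 fold change of -0.16. In both, the CCI and naive values overlapped. The one that followed, chr3:173082204-173082950 at -7.82 kb, had a positive value. It held 38.72 and 48.53 normalized reads in the CCI rats and 28.43, 27 and 29.57 in the naive rats, with a log2 fold change of 0.60 (SE 0.300). This element and the listed one, less than 10 kb apart and both with H3K4me1 over part of their length, thus had opposite signs, although the higher element did not reach p below 0.01. The other members with the highest log2 fold changes were chr3:173168328-173168524 at 0.76 (SE 0.50) and chr3:173180274-173180677 at 0.56 (SE 0.49).

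H3K4me1 was common in the *Edn3* window. It overlapped 17 of the 32 regions (53.1%, Wilson 95% interval 36.4 to 69.1), compared with 62 of 162 in the flanks (38.3%) and 31.3% of all regions. The window held 29 H3K4me1 regions, which covered 13.2% of its length, and 12 of them overlapped an accessible region. The longest to overlap members of the locus, 2713 bp, met 3 accessible regions between -26.48 and -25.26 kb with log2 fold changes of -0.49, 0.30 and 0.45. A 1593-bp H3K4me1 region near 43 kb also met 3, with values of 0.52, 0.20 and 0.12, although it covered only 10 bp (4.17%) of the first of them. The median log2 fold change was 0.12 for the 17 regions with H3K4me1 and -0.08 for the 15 without. The window was also denser in accessible regions than its flanks, with 16 per 100 kb against 8.1, and covered 11917 bp in regions of 150 to 926 bp.

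Summed over the locus, the *Edn3* window held 577 ± 11.4 normalized reads in CCI rats (SD, n = 2) and 601 ± 29.6 in naive rats (SD, n = 3). Without the listed region the sums were 567 ± 9.12 and 569 ± 40.1, a difference smaller than the spread between naive rats. The listed region took 1.52% and 2.03% of the reads of the locus in the CCI rats and 4.51%, 7.75% and 3.89% in the naive rats, with no overlap. The locus as a whole took 11.9% and 13.9% of the reads of locus and flanks in the CCI rats and 13.5%, 12.7% and 13.9% in the naive rats, with overlapping groups. A different summary separated the groups: the median log2 value of the locus minus that of the flanks was 0.17 and 0.19 in the CCI rats and 0.53, 0.32 and 0.35 in the naive rats. In this measure the CCI rats were lower, while the median of the fold changes region by region differed from the flanks by only -0.02. The medians of the flanks were 3.77 and 3.84 in the CCI rats and 3.56, 3.58 and 3.72 in the naive rats, and thus higher after CCI.

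The region listed for *Gng11* lies at chr4:31318877-31319329 and is 453 bp long. It held 4.67 and 7.33 normalized reads in CCI rats 1 and 2, compared with 29.41, 20 and 38.11 in naive rats 1 to 3, from 7 and 16 reads and from 90, 20 and 58 reads. The 2 CCI values fell short of every naive value by a wide gap, and naive rat 2, the library with the fewest reads, was the lowest of the naive rats. The means were 6.0 ± 1.88 (SD, n = 2) and 29.2 ± 9.06 (SD, n = 3), with a log2 fold change of -2.09 (SE 0.398). The ratio of CCI to naive reads was 0.208, with an exact 95% counting interval of 0.128 to 0.322. This was the lowest log2 fold change of the locus and its flanks, and 0.0841% of all regions had a lower one. In naive rats the element had the highest mean of the 9 regions in its locus, and after CCI 6 of the 9 had a higher one.

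Around this *Gng11* element lay a short stretch marked by H3K4me1. An H3K4me1 region of 1132 bp, chr4:31319102-31320233, covered 50.3% of the listed element and all of the next accessible region, chr4:31319911-31320166, centred 0.94 kb away. That neighbour had 9.35 and 7.33 normalized reads in the CCI rats and 16.01, 6 and 26.94 in the naive rats. Naive rat 2 was below both CCI rats there, so the groups overlapped, and the log2 fold change was -0.69 (SE 0.461) with a counting ratio of 0.474 (95% interval 0.303 to 0.720). The last member, chr4:31323677-31323950 at 4.71 kb, lay over a separate H3K4me1 region of 223 bp. It had 8.68 and 3.20 normalized reads after CCI and 15.03, 18 and 3.29 in naive rats. Its log2 fold change was -0.78 (SE 0.569) with a counting ratio of 0.439 (0.253 to 0.732). The 3 marked regions of the *Gng11* locus thus all had negative log2 fold changes, but the groups were separated in the listed one alone.

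The 6 other *Gng11* regions, from -86.46 to -17.75 kb, carried no H3K4me1 and had log2 fold changes of -0.56 to 0.82 with SEs of 0.49 to 0.84. The groups overlapped in all 6. The most accessible of these weak regions was chr4:31232542-31232738, with 9.35 and 14.19 normalized reads after CCI and 9.8, 12 and 7.23 in naive rats and a log2 fold change of 0.26. The highest log2 fold change, 0.82 (SE 0.71), belonged to chr4:31285638-31285787, with 6.68 and 10.07 normalized reads after CCI and 3.92, 7 and 2.63 in naive rats, and chr4:31279526-31279767 had 0.25. At chr4:31290787-31291118 the CCI rats themselves differed, with 1.34 and 13.73 normalized reads. No member lay to the right of the marked stretch, and the next accessible region of the table on that side was centred 296.74 kb away.

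Over all 9 regions of the *Gng11* locus the median log2 fold change was -0.19, with 5 negative and 4 positive, against -0.06 in the flanks. The difference of -0.13 depended on the listed element, since without it the median of the locus was 0.01 and lay 0.07 above that of the flanks. It also depended on 1 library, since without CCI rat 1 the median was 0.21 and lay 0.37 above the flanks. A limma p below 0.01 was reached by the listed region alone, 1 of 9, and by 7 of 124 flank regions, of which 5 were lower, beside 3.59% of all regions called and 1.46% called lower. The same contrast chose the listed region, so nothing is read from its call. The groups did not overlap in 1 of the 9 regions, again the listed one, against 11.0% and 18.2% of all regions with CCI below and above naive rats. In the *Gng11* flanks, 28 of the 124 regions had both CCI values below all naive values and 20 had them above.

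**Figure D2:**
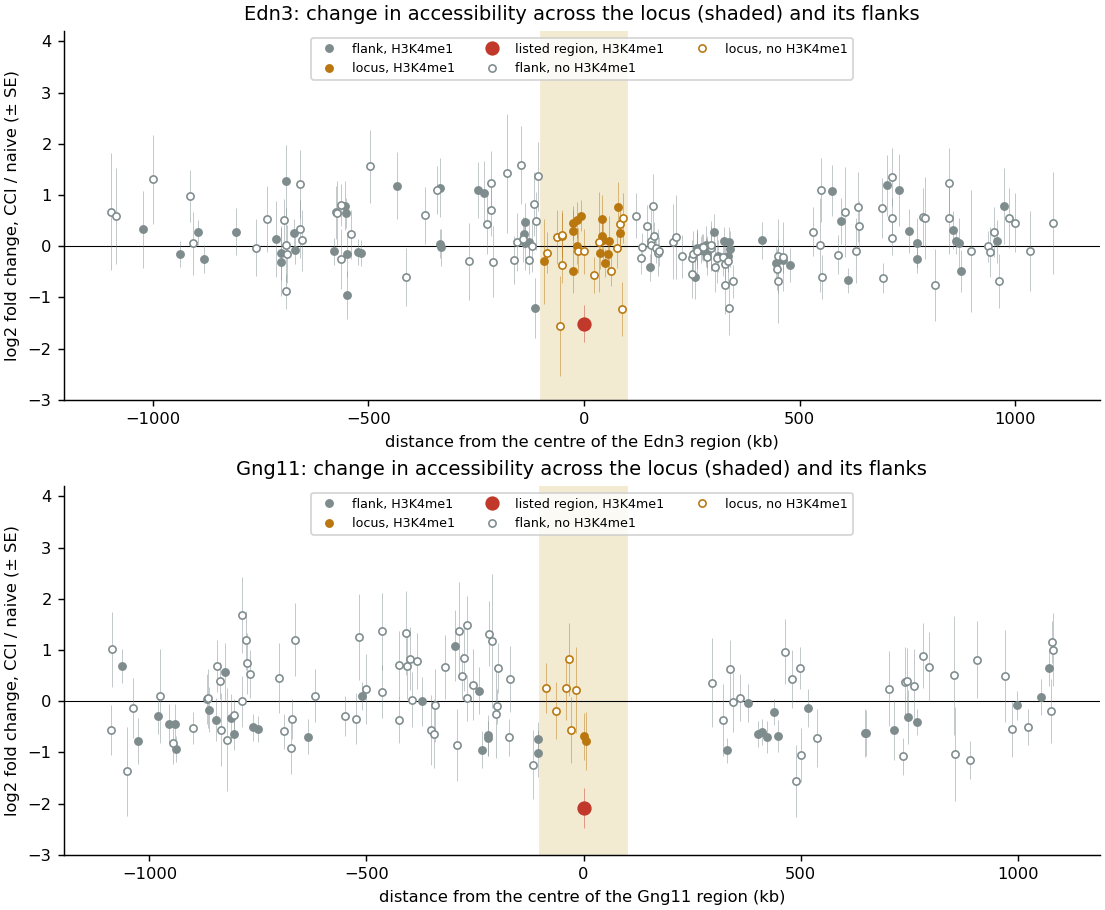
Log2 fold change between CCI and naive rats with its SE (vertical axis) against the distance in kb from the listed region (horizontal axis) for the *Edn3* locus (top) and the *Gng11* locus (bottom), both shaded, and their flanks of 1 Mb on each side. Filled symbols overlap H3K4me1, and the large red symbols are the listed regions at -1.51 and -2.09, below most other regions on their panels.

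Unlike at *Edn3*, the sums over the whole *Gng11* locus did not overlap between the groups. The sums over its flanks did not overlap either. They were 2300 ± 282 normalized reads in CCI rats (SD, n = 2) and 2816 ± 56.5 in naive rats (SD, n = 3). The *Gng11* locus held 68.6 ± 11.1 normalized reads in CCI rats (SD, n = 2) and 99.8 ± 12.2 in naive rats (SD, n = 3). Without the listed element it held 62.6 ± 9.21 and 70.6 ± 4.42, with values that overlapped. The listed element took 7.69% and 9.58% of the reads of its locus in the CCI rats, compared with 28.2%, 23.3% and 34.9% in the naive rats. The share of the reads of locus and flanks that lay in the locus was 2.37% and 3.51% after CCI and 3.65%, 2.92% and 3.70% in naive rats, with overlap. Without the listed element it was 2.19% and 3.19% after CCI and 2.65%, 2.26% and 2.44% in naive rats. The median log2 value of the locus minus that of the flanks was -0.65 and -0.44 in the CCI rats and -0.04, -0.35 and -0.40 in the naive rats, so that the CCI rats were lower but CCI rat 2 and naive rat 3 were close.

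**Figure D3:**
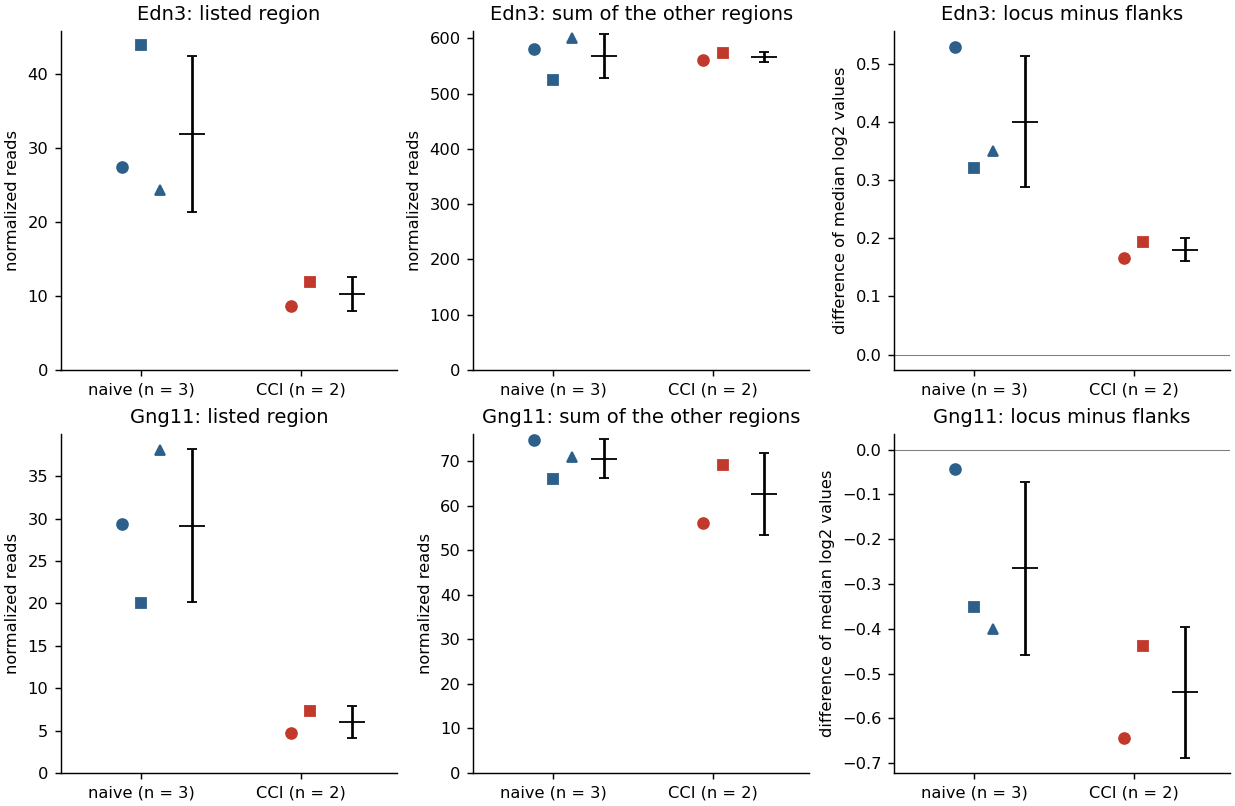
Normalized reads of the listed region (left), summed normalized reads of the other regions of its locus (middle) and the median log2 value of the locus minus that of its flanks (right) for *Edn3* (top) and *Gng11* (bottom). Symbols are rats (circle, square and triangle for rats 1, 2 and 3) and bars are the mean and SD of 3 naive and 2 CCI rats. The listed regions separate the groups (10.3 against 31.9 and 6.0 against 29.2), and the sums of the other regions do not (567 against 569 and 62.6 against 70.6).

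Lower accessibility in both CCI rats was what selected the 2 listed elements, and the label of loci that lose accessibility was read against the other regions of each window. Their summed normalized reads overlapped between the groups in both windows. Relative to the flanks, the median log2 value of the other *Edn3* regions was 0.20 and 0.21 in the CCI rats and 0.53, 0.32 and 0.35 in the naive rats, lower after CCI without overlap, and that of the other *Gng11* regions was -0.48 and -0.23 against -0.14, -0.44 and -0.46, with overlap. The median log2 value of the *Edn3* locus itself, with the listed region, was 3.94 and 4.03 in the CCI rats. In the naive rats it was 4.09, 3.91 and 4.07, with overlap. Among these summaries, the *Edn3* window was thus lower without overlap only relative to its flanks, whose medians were higher after CCI. The study's list was restricted to regions with H3K4me1, so that both listed elements overlap the mark by selection. In both, CCI rat 1 was the lowest library. They differed in their surroundings. The *Edn3* element was the eighth of 32 by mean signal in a dense window, and the *Gng11* element was the strongest of 9 in a sparse one, with 4.5 accessible regions per 100 kb against 6.2 in its flanks. The *Gng11* window held 4 H3K4me1 regions that covered 1.43% of it, against 6.61% of its flanks, and 3 of its 9 accessible regions overlapped the mark (33.3%, Wilson 95% interval 12.1 to 64.6), against 32.3% in the flanks.

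The windows were set by distance alone, and regions near their borders had values of either sign. At *Edn3* the outermost members, at -92.6 and 90.1 kb, had log2 fold changes of -0.30 and 0.56, and the nearest regions outside, at -105.6 and 119.6 kb, had 1.36 and 0.60. At *Gng11* the outermost member on the left, at -86.5 kb, had 0.26. The regions just outside it were a pair with H3K4me1 at -104.4 and -105.1 kb, with log2 fold changes of -0.74 (SE 0.338) and -1.02 (SE 0.462), and 1 without the mark at -116.6 kb with -1.25 (SE 0.675). The window thus ends beside marked regions that had the same sign as the marked members.

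The flanks held other regions that the study's list gives with a gene, selected on the same contrast. In the right flank of *Gng11*, 330.9 kb from the listed element, chr4:31649413-31650589 is listed for *Col1a2*, which encodes a chain of type I collagen. Its means were 91.7 normalized reads after CCI and 180 in naive rats, with a log2 fold change of -0.96 (SE 0.252). In the left flank, at -939.2 kb, chr4:30379433-30380364 is listed for *Pon2*, a paraoxonase, with means of 71.5 and 135 normalized reads and a log2 fold change of -0.94 (SE 0.253). The lowest among the flank regions past the threshold was chr4:32209235-32209654 at 890.3 kb, at -1.15 (SE 0.370), and the highest was chr4:31049966-31050238 at -269 kb, at 1.49 (SE 0.566), neither with H3K4me1. Around *Edn3* both regions past the threshold were lower. One of them, chr3:173701825-173702469 at 611.8 kb, is listed for *Phactr3*, a regulator of protein phosphatase 1 and actin, and had means of 104 and 167 normalized reads and a log2 fold change of -0.67 (SE 0.252). The other, chr3:172400365-172400892 at -689.8 kb, had -0.88 (SE 0.341).

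Around *Gng11*, regions with H3K4me1 tended to negative log2 fold changes across the locus and its flanks, with the listed element left out. Their median was -0.48 over 42 regions, of which 34 (81.0%) were negative, while the 90 regions without the mark had a median of 0.25 with 36 (40.0%) negative. Around *Edn3* the medians were 0.06 over 78 marked regions and 0.03 over 115 unmarked ones, and over all regions of the table they were 0.15 and 0.12. Summarized by rat, the same values separated the groups around *Gng11*, which is not an independent result. The median log2 value of marked regions exceeded that of the others by 0.92 and 0.61 in CCI rats and by 1.21, 1.52 and 1.51 in naive rats, without overlap. Signal differed along with the mark, since the median of the mean normalized reads was 19.6 for marked and 7.58 for unmarked regions around *Gng11*. Among regions at or above the median signal of this stretch, the medians were -0.53 for 38 marked and -0.18 for 28 unmarked regions, and among those below it they were 0.13 for 4 marked and 0.37 for 62 unmarked regions. The part of signal level in this difference was not tested. The difference of -0.72 between the medians lay between -0.74 and -0.53 when each rat was left out.

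**Figure D4:**
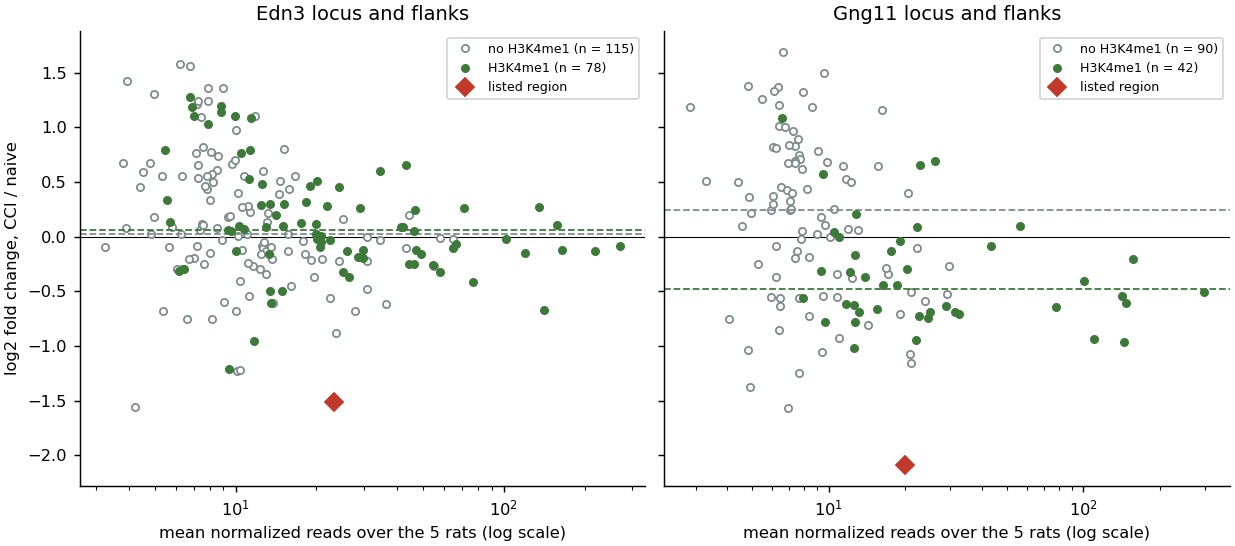
Log2 fold change between CCI and naive rats against the mean normalized reads over the 5 rats (log scale) for the regions of the *Edn3* (left) and *Gng11* (right) loci and flanks. Filled green symbols overlap H3K4me1, open grey symbols do not, dashed lines are the medians of the 2 classes without the listed regions, and red diamonds are the listed regions. The medians lie together around *Edn3* (0.06 and 0.03) and apart around *Gng11* (-0.48 and 0.25).

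Likeness to the listed regions was measured as the root mean square difference of log2(normalized reads + 1) over the 5 rats, each region centred on its own mean, over regions of locus and flanks with a mean of at least 5 normalized reads. With 5 rats this describes a pattern of values and gives no test. Of 182 regions compared with the *Edn3* element, the most alike was the member chr3:173178641-173179041, at 0.345, against a median of 0.920. The regions at -689.8 kb and, with H3K4me1, at -549.2 kb followed at 0.384 and 0.412. Of 122 regions compared with the *Gng11* element, none came as close, and the most alike were 3 flank regions without H3K4me1 at 489.9, 735.1 and -672.7 kb, at 0.497, 0.605 and 0.611 against a median of 1.10. The first of these, chr4:31808949-31809112, had 1.34 and 4.12 normalized reads after CCI and 5.88, 10 and 13.14 in naive rats, with a log2 fold change of -1.56 (SE 0.704).

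By gene order in the current rat reference, *Edn3* lies between *Zfp831* and *Zfp431l5*, and *Gng11* lies between *Gngt1*, another G protein gamma subunit gene, and *Bet1*, with *Col1a2* beyond *Bet1*. That reference is of a later build than rn6, so neither the exons, introns and promoters at the regions nor their sequences were examined here, and the accessibility of cell type marker genes, of the endothelin receptors and converting enzymes and of the other G protein subunits was likewise not analysed here. The distances given in the study's list place the start of *Gng11* inside its window and the start of *Edn3* outside its window. With *Gng11* on the + strand, as in the current reference, its start lay to the right of all members. It was then 63.47 kb from the nearest accessible region, so no region described here lies at that start.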

How the data were processed

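ATAC-seq libraries of 2 CCI and 3 naive rats were analysed, grouped by the sample labels. The study's text is not uniform on the group sizes: one passage reverses them, the account of library preparation gives equal groups, and the account of the comparison matches the labels. As described in the methods of the study, the authors aligned trimmed reads to rn6 (Bowtie2), dropped duplicates, shifted reads for Tn5 and called regions (MACS2). How reads were counted for the deposited table is not given in the sources used here. For the comparison that gave the listed regions, the authors kept regions with H3K4me1 and used DiffBind with a permissive threshold of p below 0.05. They also compared accessible promoters with DiffBind, and that comparison was not used here. Tool versions for these steps are not given in the sources used here. The deposited signal is the read count of a region divided by a size factor of its library, and its lowest value is 1 read. Whole reads were recovered from the value steps for 100% of the values, within 0.1 read. The authors also deposited the positions of 211440 merged H3K4me1 regions, which have no values per sample, and an accessible region was called marked when at least 1 bp overlapped.

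The comparison was made in R 4.3.3 with limma 3.58.1, fitted to log2(normalized reads + 1) with a mean-variance trend and no covariates, two-sided with p below 0.01, over all 186719 regions. DiffBind was not run, and its filter on regions called in each library was not applied. Since the values are signal and not counts, edgeR 4.0.16 and DESeq2 1.42.0 served as alternatives on the recovered reads. Locus summaries were made in Python 3.11.15 with pandas 2.3.3 and scipy 1.17.1, and figures with matplotlib 3.10.9. Intervals cover counting error only. Whether the rats of a group shared a batch is not stated. In the main fit, the SEs and p-values of a region follow the mean-variance trend at its signal level. They do not measure its own spread between these rats. Without the trend, limma gave the listed regions p 0.0068 (*Edn3*) and 0.0011 (*Gng11*), each with an adjusted p of 0.507. The same contrast chose these regions, so nothing is read from these values.

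In each locus the text names the listed region, those with p below 0.01, the 3 with the highest mean, the 3 lowest and 3 highest fold changes and, with the flanks, the 3 most alike. In the flanks it names the lowest and highest regions past the threshold. Neighbours of the listed elements, regions at the borders of the windows, the regions listed for *Col1a2*, *Pon2* and *Phactr3* and the comparison by H3K4me1 were added after their values were seen. The members and lists were chosen with earlier results of these data known.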

Additional observations from a re-analysis of the deposited data

How the results depend on the processing

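With 2 and 3 rats and a median of 9 reads per region in the smallest library, single regions are imprecise. The listed regions stayed negative under all alternatives run. They were selected as lower in these same libraries, with both CCI values below every naive value. Leaving out a rat or changing the pseudocount could therefore not change their sign, and nothing is read from it. Leaving out each rat gave log2 fold changes of -1.72 to -1.26 (*Edn3*) and -2.37 to -1.81 (*Gng11*), and locus medians of -0.035 to 0.18 and -0.41 to 0.21. Differences from the flanks were -0.13 to 0.13 and -0.28 to 0.37. Differences between the medians of marked and unmarked regions of locus and flanks were -0.17 to 0.17 and -0.74 to -0.53. When a naive rat was left out, 1 region at *Edn3* and 1 to 2 at *Gng11* passed limma p below 0.01. The 2 at *Gng11* came without naive rat 2, when 6892 of all 186719 regions passed, against 6703 with all 5 rats.

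With a pseudocount of 10, the listed regions were at -1.02 and -1.27, and the difference between marked and unmarked regions around *Gng11* at -0.44. Median-of-ratios rescaling lowered the median of all regions from 0.13 to 0.03 and that of the *Edn3* locus to -0.057, and 4619 of 6971 calls were then lower, against 2735 of 6703. Without the 25% of regions with the lowest mean, the *Gng11* median was -0.56 and its difference from the flanks -0.39; among regions with H3K4me1 alone that difference was -0.33. With flanks of 2 Mb the *Edn3* difference was -0.13. The *Edn3* locus had 2 regions past the threshold without a trend, a setting in which 3142 of 186719 regions passed. At limma p below 0.05 it had 3. The share of all regions at that looser cut was not computed, so nothing is read from this count. Its share of regions with H3K4me1 was 34.4% with an overlap of 50% and 25% with H3K4me1 regions of at least 1 kb. The share of reads in the *Gng11* locus, -0.48 percentage points after CCI, was 0.24 without the listed region and -1.10 with flanks of 0.5 Mb.

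With the replicate number as a block the listed regions were at -1.68 and -1.88, 1 region in each locus passed, and the difference between marked and unmarked regions around *Gng11* was -0.53. The block gave 3795 calls over all regions; same-numbered rats are different animals, and the deviations of each same-numbered pair correlated at -0.06. Over all regions, 3142 passed without a trend, 3352 without CCI rat 1, 3793 without naive rat 1, 3066 of 58445 with H3K4me1 alone and 2612 with DESeq2. Why these values moved was not tested.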
